A study of Mus musculus with 4 samples.

Results

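The genes described here are 6 receptors of the tumour necrosis factor (TNF) receptor superfamily that costimulate T cells: Tnfrsf4 (OX40), Tnfrsf9 (4-1BB), Tnfrsf18 (GITR), Tnfrsf1b (TNFR2), Tnfrsf25 (DR3) and Cd27. They were taken by name as members of this family, out of 25724 gene symbols in the table. The choice was made with earlier results of these cells known, among them values of Tnfrsf4, Tnfrsf9 and Cd27. All 6 were detected, and all 6 had at least 50 counts in the cells read. The cells were single CD4 T cells of the mouse colon, profiled by inDrops, in which each cell is captured in a droplet with barcoded primers for polyadenylated RNA. The sort took CD45+ TCRb+ CD4+ cells after digestion of the tissue. There are 4 labelled samples, all in 1 group named Btheta_colon, from the lamina propria (the connective tissue under the gut epithelium) of male B6 mice aged 6 weeks. The group has no control group beside it.

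Receptors of this family sit on the cell surface and are engaged by ligands of the TNF family on antigen-presenting and other cells. OX40, 4-1BB, GITR, TNFR2 and CD27 bind TRAF adaptor proteins and switch on NF-kB, while DR3 carries a death domain in its cytoplasmic tail and signals through TRADD. Regulatory T cells (Tregs), which restrain immune responses and depend on the factor Foxp3, are known to carry OX40, GITR and TNFR2, and 4-1BB is induced by T cell receptor signals. Gata3 encodes the lineage factor of Th2 cells, which part of the Tregs in tissues also carry, Ikzf2 encodes Helios, and Il10 encodes an anti-inflammatory cytokine.

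No barcode names its sample, so all 1985 were read as 1 sample, and no test or p-value is given. Of these, 1050 had at least 500 counts, at least 200 detected genes and under 20% mitochondrial counts, and these are called cells. They held 501 to 13023 counts each, with a median of 1236 (quartiles 963 and 1723). A cell is called positive for a gate gene (Foxp3, Gata3, Ikzf2 or Il10) when it has at least 1 count of that gene, and negative otherwise; at this depth a negative cell may still contain the transcript. Levels are CPM, the counts of a gene summed over cells and scaled to the same total; they are compared within a gene, since genes were not set on a scale per length. The values in brackets are 95% intervals, exact Poisson for levels, exact conditional for log2 ratios and exact binomial (Clopper-Pearson) for shares, and all cover counting error only. In pooled counts, fewer cells with a transcript and less transcript per cell cannot be told apart.

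The sorted cells carried T cell transcripts. All 10 T cell markers were detected, and 98.0% of cells had a count of at least 1 of them, with Cd4 in 39.0% and Cd3d in 42.7%. Their summed level was 7340 CPM in Foxp3-positive cells and 7149 CPM in Foxp3-negative cells. Markers of other cells were uneven. Cd68, Ncr1, Hba-a1 and Hbb-bs were at 0, but Muc2, an epithelial marker, had 1278 counts (825 CPM) in 21 cells. A count of the stromal or endothelial list was found in 11.5% of cells, with Pecam1 in 9.14%. The list of CD8, gamma delta, innate lymphoid or natural killer cell markers was found in 5.14%. At least 3 counts of B cell, myeloid, epithelial, stromal or erythroid markers were held by 26 barcodes, 3 of them Foxp3-positive.

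In mm10 (GENCODE vM21), 5 of the 6 genes lie on chromosome 4 and all are protein coding. Tnfrsf4 lies at chr4:156013843-156016612 on the plus strand and Tnfrsf18 at chr4:156026164-156028895, also on the plus strand. These neighbours are 9551 bases apart, with no protein-coding gene between them. Tnfrsf9 lies at chr4:150914562-150946102 (plus strand), Tnfrsf25 at chr4:152115934-152120119 (plus strand) and Tnfrsf1b at chr4:145213463-145246870 (minus strand). Cd27 lies at chr6:125232622-125237010 (minus strand). Vamp1 overlaps all of Cd27 on the opposite strand and had 15 counts, and Camta1 overlaps 28781 bases of Tnfrsf9 on the opposite strand and had 34 counts. Strand use in the counting is not given in the sources used here, so reads of such pairs cannot be told apart.

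The 250 bases before the RefSeq starts (GRCm38.p6, plus strand) of Tnfrsf4, Tnfrsf9 and Tnfrsf18 are shown because the levels of these 3 receptors went most closely together; no link between the letters and the levels was tested. RefSeq and GENCODE starts differ: the Tnfrsf9 window lies inside the GENCODE span of its gene given above, and the Tnfrsf18 window lies partly inside its own. Of 2 RefSeq entries for Tnfrsf9, the one nearer the GENCODE start was used. Capitals mark matches to the NFAT core GGAAAA on either strand.
Tnfrsf4 (chr4:156013445-156013694): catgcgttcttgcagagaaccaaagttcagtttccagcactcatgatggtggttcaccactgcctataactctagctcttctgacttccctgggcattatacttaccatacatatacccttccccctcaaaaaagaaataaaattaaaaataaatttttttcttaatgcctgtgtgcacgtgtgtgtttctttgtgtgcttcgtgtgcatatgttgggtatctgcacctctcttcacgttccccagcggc
Tnfrsf9 (chr4:150919905-150920154): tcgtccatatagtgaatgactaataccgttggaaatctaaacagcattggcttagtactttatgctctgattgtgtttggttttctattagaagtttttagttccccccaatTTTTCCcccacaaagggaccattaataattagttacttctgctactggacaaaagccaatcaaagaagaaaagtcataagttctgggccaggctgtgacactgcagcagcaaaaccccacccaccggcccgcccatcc
Tnfrsf18 (chr4:156026072-156026321): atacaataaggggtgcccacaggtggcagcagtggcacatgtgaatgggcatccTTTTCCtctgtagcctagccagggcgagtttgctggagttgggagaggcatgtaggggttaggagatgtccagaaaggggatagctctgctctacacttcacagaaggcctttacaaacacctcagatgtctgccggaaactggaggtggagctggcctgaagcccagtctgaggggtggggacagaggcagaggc
The NFAT core was found once each before Tnfrsf9, Tnfrsf18, Tnfrsf25 and Cd27, and before neither Tnfrsf4 nor Tnfrsf1b, against 20.4% of 32526 such windows over all genes. Matches on both strands were counted, and no match overlapped another motif. None of the 6 windows held the AP-1 letters TGANTCA (6.73% of all windows), the forkhead letters TGTTTAC (3.17%), the GATA letters AGATAA (9.97%) or the NF-kB consensus (3.92%). A match is a description of letters in this window and not a binding site.

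Tnfrsf18, which marks Tregs and activated T cells, had 1073 counts in 439 of the 1050 cells, or 41.8% (38.8 to 44.9). Tnfrsf4 had 799 counts in 378 cells, or 36.0% (33.1 to 39.0). Tnfrsf9 had 632 counts in 271 cells, or 25.8% (23.2 to 28.6). The most counts in 1 cell lay between 9 and 13 for every receptor but Tnfrsf25, where it was 3. Tnfrsf1b had 446 counts in 261 cells, or 24.9% (22.3 to 27.6). Cd27, a receptor of naive and memory T cells, had 482 counts in 240 cells, or 22.9% (20.3 to 25.5). Tnfrsf25 had 82 counts in 68 cells, or 6.48% (5.06 to 8.14), and 57 of those cells had a single count. Counts were clumped in part of the cells: Tnfrsf9 would have been found in 447 cells, not 271, if its counts were spread by depth alone, and Tnfrsf4 in 524, not 378. The intervals are therefore narrower than the true uncertainty.

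Cells that carried naive markers had less of Tnfrsf4, Tnfrsf9 and Tnfrsf1b, and more of Cd27. In 46 cells with at least 2 of Ccr7, Igfbp4, Tcf7 and Lef1, Tnfrsf4 was detected in 4.35% (0.531 to 14.8), against 37.5% of the other 1004 cells. Tnfrsf9 was likewise detected in 4.35% (0.531 to 14.8) of the naive-marker cells and in 26.8% of the others. Tnfrsf1b was detected in 6.52% (1.37 to 17.9) of the naive-marker cells and in 25.7% of the others. The median depths were 1342.5 counts in the naive-marker cells and 1231.5 in the others, so the naive-marker cells were not the shallower ones. Tnfrsf18 was still found in 19.6% (9.36 to 33.9) of naive-marker cells and in 42.8% of the others. Cd27 went the other way, at 37.0% (23.2 to 52.5) of naive-marker cells and 22.2% (19.7 to 24.9) of the others, with shares whose intervals overlapped. Its level was 463 CPM in naive-marker cells and 304 CPM in the others (log2 ratio 0.60, 0.03 to 1.13). Tnfrsf25 was found in 0 of the 46 cells, with an exact upper bound of 7.71%.

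Foxp3-positive cells carried higher levels of all these receptors but Tnfrsf25. Of the 6 genes, 5 were at least 1.5-fold higher in the 332 Foxp3-positive cells than in the 718 Foxp3-negative cells. Among all 4789 genes with at least 50 counts, 10.3% were at least 1.5-fold higher in this comparison. At least 2-fold higher were 1 of the 6, Tnfrsf4, and 2.19% of all genes. The median log2 ratio was 0.87 over the 6 receptors and 0.01 over all genes. The family was proposed with earlier results of these cells known, among them values of Tnfrsf4, Tnfrsf9 and Cd27.

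Tnfrsf4 stood at 812 CPM (736 to 894) in Foxp3-positive cells and 368 CPM (332 to 407) in Foxp3-negative cells, a log2 ratio of 1.14 (0.94 to 1.34). Tnfrsf18 stood at 999 CPM in Foxp3-positive and 540 CPM in Foxp3-negative cells, a log2 ratio of 0.89 (0.71 to 1.06). Tnfrsf9 stood at 593 CPM in Foxp3-positive and 316 CPM in Foxp3-negative cells, a log2 ratio of 0.91 (0.68 to 1.14). Their Poisson intervals did not overlap between the sides. These intervals take every count as independent, and the counts were clumped, so they are narrower than the true uncertainty. Tnfrsf1b, the receptor for membrane-bound TNF on Tregs, stood at 410 CPM in Foxp3-positive and 227 CPM in Foxp3-negative cells (log2 ratio 0.85, 0.58 to 1.13). Cd27 stood at 412 CPM in Foxp3-positive and 261 CPM in Foxp3-negative cells (0.66, 0.39 to 0.92). Tnfrsf25 stood at 42.7 CPM in Foxp3-positive and 58.0 CPM in Foxp3-negative cells (-0.44, -1.22 to 0.29), and its interval included 0. Tnfrsf25 had only 22 counts in Foxp3-positive and 60 counts in Foxp3-negative cells, so a difference within that interval was not detectable at this depth.

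**Figure D1:**
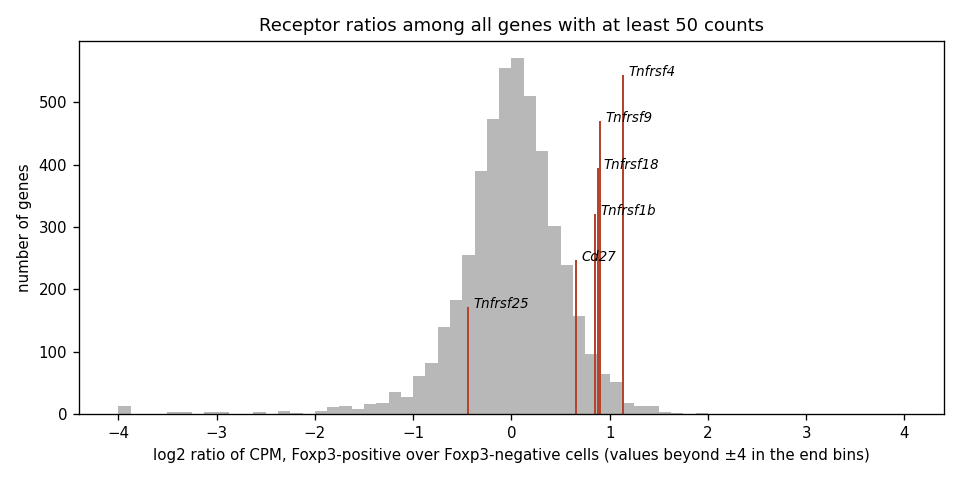
Number of genes (vertical axis) by log2 ratio of CPM in Foxp3-positive over Foxp3-negative cells (horizontal axis) for the 4789 genes with at least 50 counts; red lines mark the 6 receptors and their heights carry no value. Tnfrsf4 (1.14), Tnfrsf9, Tnfrsf18, Tnfrsf1b and Cd27 (0.66) lie to the right of most genes, and Tnfrsf25 (-0.44) lies to the left of 0.

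The log2 ratios by Foxp3 kept their signs after thinning all 1050 cells to 500 counts, but not their ranking. The ratio of Tnfrsf4 fell from 1.14 to 0.67 (0.31 to 1.01) and that of Tnfrsf18 from 0.89 to 0.58 (0.28 to 0.89), both below their first intervals. Tnfrsf9 then had the largest ratio, at 0.90 (0.53 to 1.27). Tnfrsf18 was then found in 32.5% (27.5 to 37.9) of cells with Foxp3 and 21.2% (18.2 to 24.3) of cells without. Tnfrsf9 was found in 22.9% (18.5 to 27.8) of cells with Foxp3 and 12.0% (9.69 to 14.6) of cells without. Tnfrsf4 was found in 25.3% (20.7 to 30.3) of cells with Foxp3 and 16.2% (13.5 to 19.1) of cells without. For these 3 receptors the shares were apart by more than their intervals. Unthinned, Tnfrsf18 was found in 58.1% of cells with Foxp3 and 34.3% without, and Tnfrsf4 in 54.8% with and 27.3% without. Tnfrsf1b was found after thinning in 13.9% (10.3 to 18.0) of cells with Foxp3 and 10.03% (7.93 to 12.5) of cells without, and these intervals overlapped. Cd27 was found in 16.9% (13.0 to 21.3) of cells with Foxp3 and 10.4% (8.31 to 12.9) of cells without, with intervals that just missed each other. Median depth was 1304.5 counts with Foxp3 and 1215 without.

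Other cell markers moved with the Foxp3 gate. The summed level of the epithelial list (7 genes measured) was 29.1 CPM in Foxp3-positive and 2431 CPM in Foxp3-negative cells. The stromal or endothelial list (6 genes) stood at 64.1 CPM in Foxp3-positive and 647 CPM in Foxp3-negative cells, and the myeloid list (8 genes, Cd68 at 0) at 79.7 CPM in Foxp3-positive and 277 CPM in Foxp3-negative cells. The naive list (4 genes) stood at 122 CPM in Foxp3-positive and 418 CPM in Foxp3-negative cells. Without the 26 barcodes with other-lineage counts, the log2 ratio was 1.05 for Tnfrsf4, 0.80 for Tnfrsf18, 0.83 for Tnfrsf9 and 0.54 for Cd27, and 4 of the 6 receptors were still at least 1.5-fold higher. The naive, epithelial and stromal lists were lower on the positive side of the other gates as well: the naive list stood at 209.8 CPM in Gata3-positive and 465 CPM in Gata3-negative cells, and at 71.8 CPM in Il10-positive and 407 CPM in Il10-negative cells. The epithelial list stood at 15.9 CPM in Gata3-positive and 3770 CPM in Gata3-negative cells. In the Ikzf2 gate the naive list stood at 147 CPM in Ikzf2-positive and 416 CPM in Ikzf2-negative cells, the epithelial list at 663 CPM in Ikzf2-positive and 2177 CPM in Ikzf2-negative cells, and the stromal or endothelial list at 80.9 CPM in Ikzf2-positive and 662 CPM in Ikzf2-negative cells. The part of the naive-marker cells in the ratios was not tested.

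Gata3-positive cells carried more Tnfrsf9 and Tnfrsf4 but not more Cd27. Of the 6 receptors, 4 were at least 1.5-fold higher in the 572 Gata3-positive than in the 478 Gata3-negative cells, against 10.1% of all genes. Tnfrsf9 stood at 563 CPM in Gata3-positive and 204 CPM in Gata3-negative cells (log2 ratio 1.46, 1.19 to 1.75). Tnfrsf4 stood at 685 CPM in Gata3-positive and 292 CPM in Gata3-negative cells (1.23, 0.99 to 1.47). Tnfrsf18 (0.82, 0.63 to 1.01) and Tnfrsf1b (0.64, 0.35 to 0.93) were the others. Cd27 stood at 297 CPM in Gata3-positive and 330 CPM in Gata3-negative cells (-0.15, -0.41 to 0.12). Its interval included 0 there, but not without the 26 barcodes with other-lineage counts (-0.31, -0.57 to -0.04). After thinning, Tnfrsf1b was detected in 11.9% of Gata3-positive and 10.5% of Gata3-negative cells, with overlapping intervals.

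The ratio of Tnfrsf9 was highest in the Ikzf2 gate, with an interval that overlapped those of the Gata3 and Il10 gates. In cells of 800 to 2000 counts it was 1.54 by Ikzf2 and 1.52 by Gata3. Of the 6 receptors, 5 were at least 1.5-fold higher in the 358 Ikzf2-positive than in the 692 Ikzf2-negative cells, against 10% of all genes. Tnfrsf9 stood at 751 CPM (681 to 827) in Ikzf2-positive and 216 CPM (188 to 247) in Ikzf2-negative cells, a log2 ratio of 1.80 (1.56 to 2.05). Tnfrsf4 stood at 818 CPM in Ikzf2-positive and 347 CPM in Ikzf2-negative cells (1.24, 1.03 to 1.44). After thinning, Tnfrsf9 was detected in 26.3% (21.8 to 31.1) of Ikzf2-positive and 9.83% (7.71 to 12.3) of Ikzf2-negative cells. Tnfrsf1b (1.0, 0.73 to 1.28), Tnfrsf18 (0.92, 0.74 to 1.09) and Cd27 (0.65, 0.39 to 0.92) were also higher in Ikzf2-positive cells, and the interval of Tnfrsf25 (0.12, -0.58 to 0.79) included 0.

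Il10-positive cells carried more of 5 receptors, Cd27 and Tnfrsf1b among them. Of the 6 receptors, 5 were at least 1.5-fold higher in the 266 Il10-positive than in the 784 Il10-negative cells, against 11.3% of all genes. Cd27 stood at 510 CPM (443 to 585) in Il10-positive and 241 CPM (213 to 271) in Il10-negative cells (log2 ratio 1.08, 0.81 to 1.35), an interval that overlapped that of Cd27 in the Foxp3 gate. Tnfrsf1b stood at 505 CPM (438 to 580) in Il10-positive and 211 CPM (186 to 240) in Il10-negative cells (1.26, 0.98 to 1.53). Tnfrsf9 (1.44, 1.21 to 1.67), Tnfrsf4 (1.15, 0.95 to 1.36) and Tnfrsf18 (0.83, 0.65 to 1.01) were higher as well. Tnfrsf25 stood at 54.5 CPM in Il10-positive and 52.4 CPM in Il10-negative cells.

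**Figure D2:**
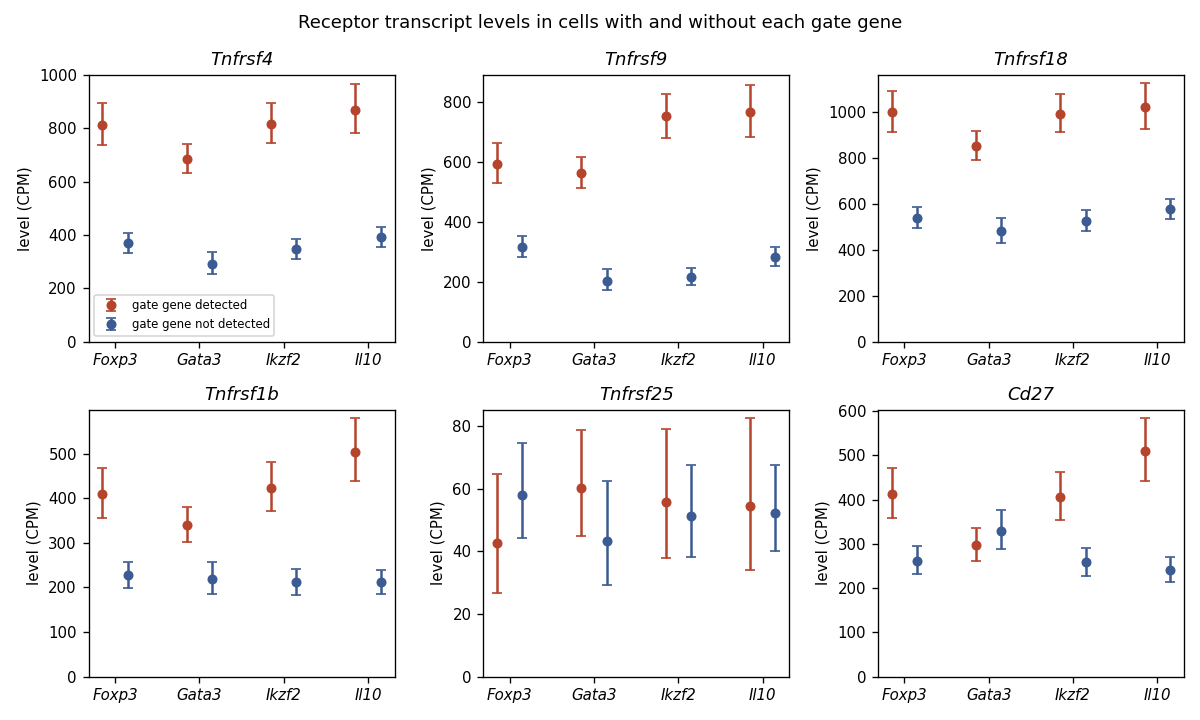
Level of each receptor (vertical axes, CPM, from 0) in cells with (red, left) and without (blue, right) at least 1 count of each gate gene; points are summed levels and bars are 95% Poisson intervals. The red and blue intervals are apart in all 4 gates for Tnfrsf4, Tnfrsf9, Tnfrsf18 and Tnfrsf1b, overlap in the Gata3 gate for Cd27, and overlap in every gate for Tnfrsf25.

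The gates overlapped. Ikzf2 was found in 166 of 332 cells with Foxp3 and in 26.7% of those without, Gata3 in 60.5% with and 51.7% without, and Il10 in 44.0% with and 16.7% without. The receptors were therefore also read within each Foxp3 status.

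Among Foxp3-negative cells, those with Il10 carried the receptors at levels such as 836 CPM of Tnfrsf4, beside 812 CPM in all Foxp3-positive cells. Of the 6 receptors, 5 were at least 1.5-fold higher in the 120 Il10-positive than in the 598 Il10-negative cells of this status, against 15% of 3469 genes with at least 50 counts there. Tnfrsf9 stood at 841 CPM in Il10-positive and 210 CPM in Il10-negative cells (log2 ratio 2.0, 1.68 to 2.32). Tnfrsf4 stood at 836 CPM in Il10-positive and 274 CPM in Il10-negative cells (1.61, 1.30 to 1.91). Cd27 stood at 588 CPM in Il10-positive and 195 CPM in Il10-negative cells (1.59, 1.22 to 1.95). These levels come from 145, 146 and 102 counts for Tnfrsf4, Tnfrsf9 and Cd27 in Il10-positive cells. After thinning, Tnfrsf4 was detected in 37.5% (28.8 to 46.8) of the Il10-positive and 11.9% (9.39 to 14.7) of the Il10-negative cells. Tnfrsf1b (1.57, 1.17 to 1.96) and Tnfrsf18 (1.19, 0.92 to 1.45) were also higher.

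Among Foxp3-positive cells fewer receptors reached that fold by Il10. Of the 6 receptors, 1 was at least 1.5-fold higher in the 146 Il10-positive than in the 186 Il10-negative cells of this status, against 9.50% of 1790 genes. That gene was Tnfrsf1b (log2 ratio 0.59, 0.19 to 1.0), whose ratio was 0.08 (-0.68 to 0.83) after thinning. Tnfrsf9 stood at 708 CPM in Il10-positive and 499 CPM in Il10-negative cells (0.50, 0.17 to 0.84), with an interval above 0 that included 0 when counts were capped at 1 per cell (0.21, -0.31 to 0.72). Tnfrsf4 stood at 895 CPM in Il10-positive and 745 CPM in Il10-negative cells (0.26, -0.02 to 0.55), and its ratio was -0.26 after thinning. Tnfrsf18 stood at 1029 CPM in Il10-positive and 974 CPM in Il10-negative cells (0.08, -0.18 to 0.34), and Cd27 at 452 and 380 CPM (0.25, -0.15 to 0.65). The log2 ratios in Foxp3-positive and Foxp3-negative cells had intervals that did not overlap for 5 of the 6 receptors, all but Tnfrsf25. The share of all genes with intervals apart was not taken, for this gate or the others. Whether such counts are particular to the receptors is therefore not known. The difference between the ratios was not tested, since the table is 1 sample.

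Ikzf2 showed the same order. Among Foxp3-negative cells, 4 of the 6 receptors were at least 1.5-fold higher in the 192 Ikzf2-positive than in the 526 Ikzf2-negative cells, against 11.2% of genes. Tnfrsf9 stood at 719 CPM in Ikzf2-positive and 158 CPM in Ikzf2-negative cells of this status (log2 ratio 2.19, 1.86 to 2.53). Among Foxp3-positive cells, 2 of the 6 were at least 1.5-fold higher in the 166 Ikzf2-positive than in the 166 Ikzf2-negative cells, against 8.44% of genes. These were Tnfrsf9, at 786 CPM in Ikzf2-positive and 388 CPM in Ikzf2-negative cells (1.02, 0.66 to 1.38), and Tnfrsf4 (0.62, 0.33 to 0.92). The interval of Tnfrsf4 included 0 after thinning (0.46, -0.08 to 1.01) and with counts capped at 1 per cell (0.44, -0.005 to 0.88). Between Foxp3-positive and Foxp3-negative cells, the intervals of the ratios were apart for Tnfrsf4, Tnfrsf9 and Tnfrsf18. For Cd27 the ratio was alike in both, at 0.53 (0.12 to 0.94) in Foxp3-positive and 0.53 (0.16 to 0.90) in Foxp3-negative cells.

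Gata3 differed from the other gates in this respect, since no receptor had intervals apart between the Foxp3 statuses. Among Foxp3-positive cells, 2 of the 6 were at least 1.5-fold higher in the 201 Gata3-positive than in the 131 Gata3-negative cells, against 11.4% of genes. Tnfrsf4 stood at 1042 CPM in Gata3-positive and 398 CPM in Gata3-negative cells (log2 ratio 1.39, 1.02 to 1.77), and Tnfrsf9 at 758 and 294 CPM (1.36, 0.94 to 1.82). Cd27 was lower, at 365 CPM in Gata3-positive and 496 CPM in Gata3-negative cells (-0.44, -0.85 to -0.03), and its interval included 0 after thinning (-0.62, -1.30 to 0.06). Among Foxp3-negative cells 4 of the 6 were at least 1.5-fold higher in the 371 Gata3-positive than in the 347 Gata3-negative cells, against 10.9% of genes. They were Tnfrsf9 (1.39, 1.03 to 1.77), Tnfrsf18 (0.91, 0.65 to 1.18), Tnfrsf4 (0.90, 0.58 to 1.22) and Tnfrsf25, whose interval included 0 (0.71, -0.09 to 1.55). With counts capped at 1 per cell, 1 of the 6 reached that fold in Foxp3-negative cells.

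**Figure D3:**
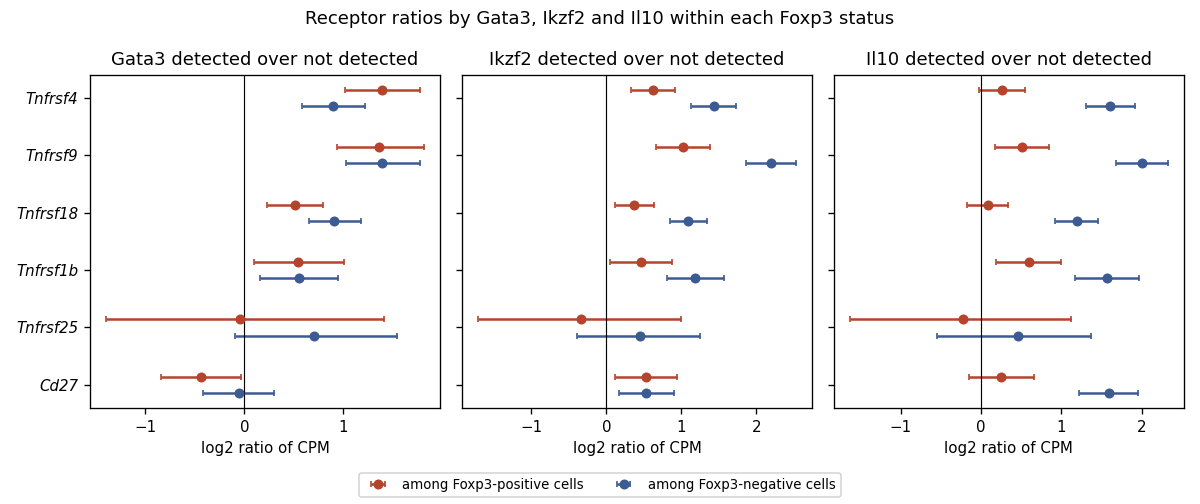
Log2 ratio of CPM (horizontal axes) of cells with over cells without Gata3, Ikzf2 or Il10, for each receptor (rows), among Foxp3-positive (red, upper) and Foxp3-negative (blue, lower) cells; bars are 95% conditional intervals. The red and blue intervals are apart for 0 receptors by Gata3, 3 by Ikzf2 and 5 by Il10, and the share of all genes with intervals apart was not taken.

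Pooled levels of Tnfrsf9 and Tnfrsf4 rose with the number of gate genes detected, but also differed by which gene was detected. Among Foxp3-negative cells, Tnfrsf9 stood at 168 CPM with Gata3 alone (208 cells), 644 CPM with Ikzf2 alone (44 cells) and 410 CPM with Il10 alone (33 cells). With Gata3 and Ikzf2 but not Il10, Tnfrsf9 stood at 542 CPM (93 cells). No interval was taken for these combinations, so no order is read between this level and that of Ikzf2 alone. In Foxp3-negative cells Tnfrsf9 stood at 39.0, 268, 598 and 1217 CPM in cells with 0, 1, 2 and 3 of Gata3, Ikzf2 and Il10 detected. The classes held 253, 285, 142 and 38 cells, with median depths of 1172, 1216, 1244 and 1661 counts. Tnfrsf9 was 31.2-fold higher in cells with 3 than with 0 (log2 ratio 4.96, 4.14 to 5.90). Thinned to 500 counts, Tnfrsf9 was detected in 2.77%, 11.2%, 20.4% and 47.4% of these cells, in the same order. Tnfrsf4 stood at 125, 318, 744 and 821 CPM over the same classes, and the last 2 had overlapping intervals. In Foxp3-positive cells Tnfrsf9 stood at 203, 366, 716 and 983 CPM in cells with 0, 1, 2 and 3 of them detected (56, 93, 129 and 54 cells). Tnfrsf4 stood at 358, 579, 990 and 1151 CPM in these Foxp3-positive classes. Its thinned shares there were 17.9%, 23.7%, 27.9% and 29.6%, with overlapping intervals.

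The pooled level of Tnfrsf18 also rose with the number of gate genes detected among Foxp3-positive cells, but its thinned shares did not. Its level was 739, 937, 1010 and 1286 CPM with 0, 1, 2 and 3 detected. The log2 ratio of 3 over 0 was 0.80 (0.35 to 1.26). Its thinned shares were 30.4%, 29.0%, 37.2% and 29.6%, with overlapping intervals, so no order is read from them. In the Foxp3-negative classes its level was 259, 479, 980 and 1070 CPM. Foxp3-positive cells with none of the other 3 genes detected still held 739 CPM of Tnfrsf18, against 259 CPM in Foxp3-negative cells with none. Cd27 had 262, 495, 427 and 397 CPM in the Foxp3-positive classes, with no steady order, and 181, 243, 382 and 425 CPM in the Foxp3-negative classes. Tnfrsf25 stayed between 29.4 and 103 CPM in all 8 classes, with overlapping intervals.

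**Figure D4:**
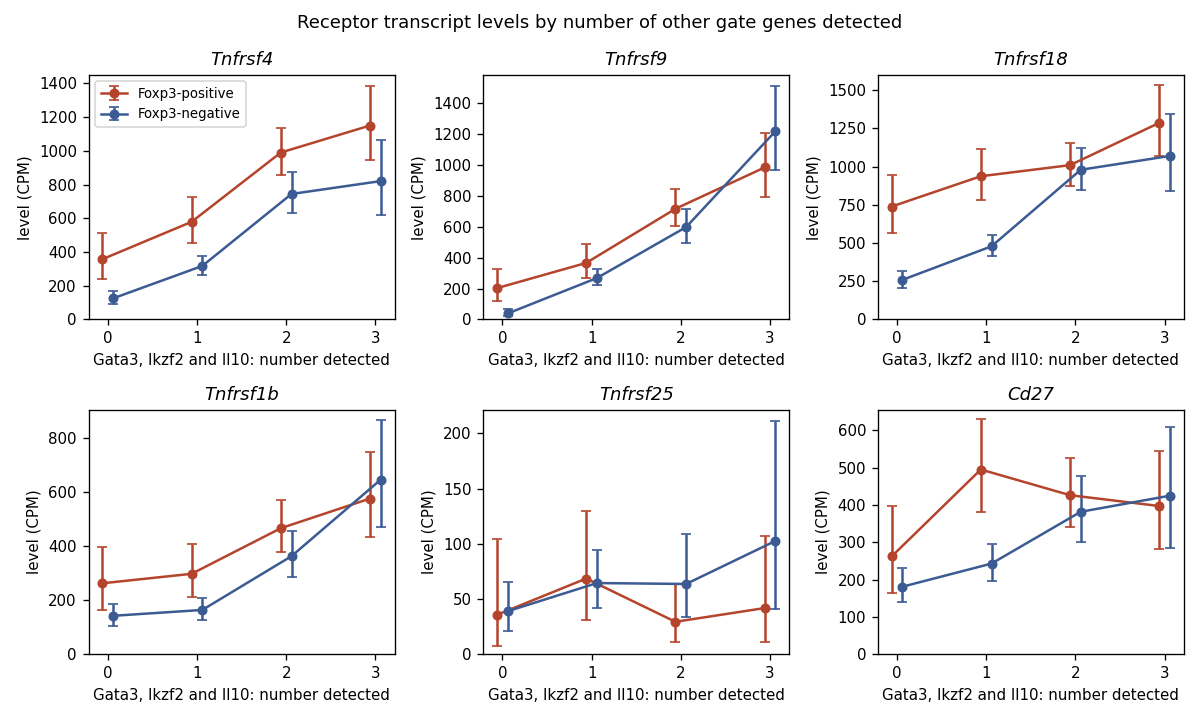
Level of each receptor (vertical axes, CPM, from 0) by the number of Gata3, Ikzf2 and Il10 detected in a cell (horizontal axes, 0 to 3), in Foxp3-positive (red) and Foxp3-negative (blue) cells; points are summed levels and bars are 95% Poisson intervals. Tnfrsf9 goes up with the number in both kinds of cell, to 983 CPM in Foxp3-positive and 1217 CPM in Foxp3-negative cells.

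Detection of 1 receptor went with detection of others, although most cells carried 0 or 1 of them: after thinning, 47.1% of all cells had none of the 6 and 30.1% had 1. With every cell thinned to 500 counts, no receptor was found in 32.8% of cells with Foxp3 and 53.8% of cells without, and in 26.7% of Il10-positive and 54.1% of Il10-negative cells. Of the 15 pairs of receptors, 13 were more frequent together, in that the share of cells with one gene was higher in cells with the other than in cells without it. In 9 pairs the exact binomial intervals were apart. Pairs of other genes were not read in this way, so whether these counts are particular to the receptors is not known. Tnfrsf18 was detected in 41.0% (34.1 to 48.2) of the 200 cells with Tnfrsf4 and in 20.9% (18.3 to 23.8) of the 850 cells without. Tnfrsf9 was detected in 29.0% (22.8 to 35.8) of the cells with Tnfrsf4 and in 12.2% (10.1 to 14.6) of those without. Tnfrsf18 and Tnfrsf1b differed less in this respect, with Tnfrsf1b in 12.7% (8.90 to 17.4) of cells with Tnfrsf18 and 10.8% (8.69 to 13.1) of those without. The pairs of Tnfrsf25 with Tnfrsf9 and with Cd27 were the 2 that were not more frequent together.

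The pairs were also read within each Foxp3 status. In Foxp3-positive cells 14 of 15 pairs were more frequent together and 0 had intervals apart. In Foxp3-negative cells 14 of 15 pairs were more frequent together and 8 had intervals apart. Among Foxp3-positive cells, Tnfrsf9 was detected in 28.6% (19.2 to 39.5) of those with Tnfrsf4 and in 21.0% (16.1 to 26.6) of those without. Among Foxp3-negative cells it was detected in 29.3% (21.2 to 38.5) of those with Tnfrsf4 and in 8.64% (6.52 to 11.2) of those without. Foxp3-positive cells were fewer, and the difference between the statuses was not tested. Pairs of other genes were not read within each status either.

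**Figure D5:**
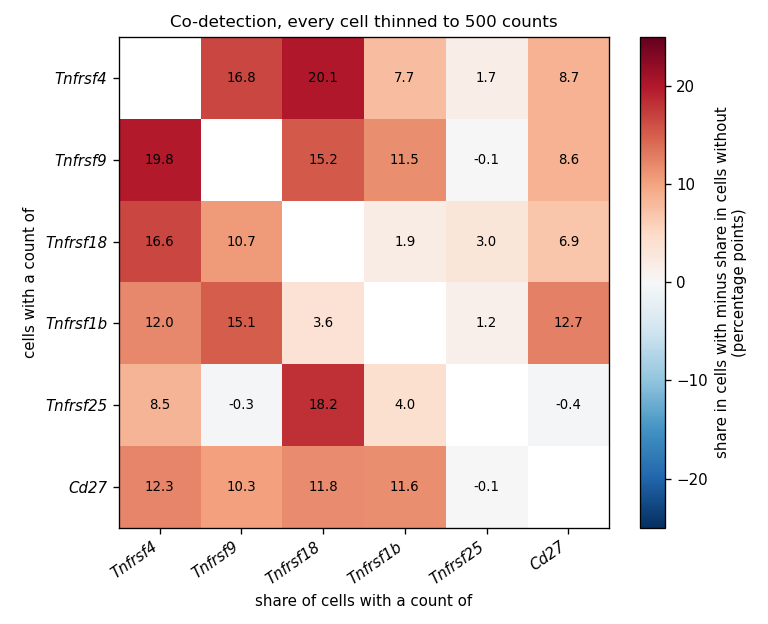
Difference, in percentage points, between the share of cells with a count of the column gene among cells with and among cells without a count of the row gene, every cell thinned to 500 counts. Tnfrsf18 is found in 41.0% of cells with Tnfrsf4 and 20.9% of cells without, and values that involve Tnfrsf25 rest on 33 cells.

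Over the 15 combinations of the 4 gate genes that held at least 20 cells, the levels of Tnfrsf4 and Tnfrsf9 went most closely together, with Pearson's r of 0.92 on the log2(CPM + 10) scale. Tnfrsf4 with Tnfrsf18 had r of 0.91, and Tnfrsf9 with Tnfrsf18 had r of 0.86. Tnfrsf25 had r between -0.22 and 0.10 with the others. These combinations share 1 library and differ in depth, so r is a description. Among 1138 other genes with at least 200 counts, the genes of most like pattern were Zfp36l1 (r 0.85), Klrg1 (0.85) and Dusp1 (0.82) for Tnfrsf4. For Tnfrsf9 they were Klrg1 (0.92), Zfp36l1 (0.89) and Junb (0.87), and for Tnfrsf18 Klrg1 (0.88), H2-K1 (0.84) and Pim1 (0.84). Klrg1, an inhibitory lectin receptor of effector T cells and some tissue Tregs, was thus named for all 3. For Tnfrsf1b they were Grap (0.78), Cish (0.76) and Fgl2 (0.76), for Cd27 they included Cdc42se2 (0.87) and Gzmb (0.83), and for Tnfrsf25, on few counts, Rbm3 (0.92), Dock8 (0.84) and Lcp2 (0.83).

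No measured ligand of this family was at least 1.5-fold higher in Foxp3-positive cells. Of 17 ligand genes, 10 had at least 10 counts, of which 0 were at least 1.5-fold higher and 5 at least 1.5-fold lower in Foxp3-positive than in Foxp3-negative cells. Over all 9334 genes with at least 10 counts, 15.2% were at least 1.5-fold higher and 20.9% lower, and the median log2 ratio was -0.04, against -0.97 for the ligands. Tnfsf8, the CD30 ligand, stood at 11.7 CPM in Foxp3-positive and 43.5 CPM in Foxp3-negative cells (log2 ratio -1.90, -3.42 to -0.67). Ltb, a lymphotoxin chain and the ligand with the most counts, stood at 404 CPM in Foxp3-positive and 363 CPM in Foxp3-negative cells (0.16, -0.09 to 0.40). Tnfsf11 (-0.22, -0.70 to 0.26) and Tnfsf10 (-0.12, -0.94 to 0.65) had intervals that included 0. The other 4 that were lower, chosen after their values were seen, were Tnfsf14, Fasl, Cd40lg and Lta, each with 5 or fewer counts in Foxp3-positive cells.

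Of 22 other receptors of the family, 9 had at least 10 counts, with 4 at least 1.5-fold higher and 3 at least 1.5-fold lower in Foxp3-positive cells, beside 15.2% higher and 20.9% lower of all genes, and a median log2 ratio of 0.42. Tnfrsf13b (TACI), best known from B cells, stood at 91.3 CPM in Foxp3-positive and 36.7 CPM in Foxp3-negative cells (1.31, 0.67 to 1.97). The other 3 that were higher, chosen after their values were seen, were Tnfrsf8, Fas and Relt, on 13 to 24 counts each, and the interval of Relt included 0 (0.77, -0.54 to 2.04). The 3 that were lower, named in the same way, were Tnfrsf11a and Tnfrsf26, whose intervals included 0, and Tnfrsf10b, with 0 counts in Foxp3-positive and 20 counts in Foxp3-negative cells. Tnfrsf1a, the TNF receptor with a death domain, stood at 31.1 CPM in Foxp3-positive and 32.9 CPM in Foxp3-negative cells (-0.08, -1.04 to 0.82), with no difference detectable at this depth. The B or plasma cell list (5 genes) summed to 13.6 CPM in Foxp3-positive and 20.3 CPM in Foxp3-negative cells. Cd79b, with 18 counts, stood at 13.6 CPM in Foxp3-positive and 10.6 CPM in Foxp3-negative cells. Cd79a, Ms4a1, Jchain and Mzb1 were at 0 in Foxp3-positive cells, but had only 1 to 6 counts each in all cells.

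Adaptors of these receptors differed little. Of 16, all had at least 10 counts, 2 were at least 1.5-fold higher and 1 at least 1.5-fold lower in Foxp3-positive cells, beside 15.2% higher and 20.9% lower of all genes, and the median log2 ratio was 0.04. Traf5, an adaptor of OX40 and CD27, stood at 48.6 CPM in Foxp3-positive and 30.9 CPM in Foxp3-negative cells (0.65, -0.16 to 1.45). The other adaptor at least 1.5-fold higher, named after its values were seen, was Map3k14, on 42 counts (0.59, -0.38 to 1.53). The intervals of Traf5 and Map3k14 included 0. Traf1 stood at 163 CPM in Foxp3-positive and 118 CPM in Foxp3-negative cells (0.47, 0.05 to 0.88). Traf3ip3, at 1.49-fold (0.58, 0.17 to 0.98), and Ripk1 (-0.73, -1.80 to 0.23) were the others named.

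Among NF-kB subunits and targets, 21 of 22 had at least 10 counts, with 7 at least 1.5-fold higher and 2 at least 1.5-fold lower in Foxp3-positive cells, beside 15.2% higher and 20.9% lower of all genes, and a median log2 ratio of 0.10. Rel, which encodes the subunit c-Rel, stood at 91.3 CPM in Foxp3-positive and 40.6 CPM in Foxp3-negative cells (1.17, 0.54 to 1.81). Bcl2l1, which encodes the survival protein Bcl-xL, stood at 89.4 CPM in Foxp3-positive and 43.5 CPM in Foxp3-negative cells (1.04, 0.41 to 1.66). The others that were higher, named after their values were seen, were Nfkbia, Tnfaip3, Nfkbiz, Cd83 and Nfkbie. Nfkbia (0.64, 0.54 to 0.73) had 3578 counts and Tnfaip3 (0.69, 0.50 to 0.87) had 991, against 89 for Rel and 91 for Bcl2l1. The 2 that were lower were Ccr7, a naive marker (-3.10, -5.02 to -1.68), and Bcl2a1d (-1.01, -1.87 to -0.23), which has near-identical copies, so its counts are uncertain.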

How the data were processed

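The values are counts in a single table of barcodes by genes, as deposited by the authors. TopHat2, SAMtools and mm10 are named by the submitters' processing notes, without versions or roles. How reads were counted, with which strand setting, annotation, collapse of molecular identifiers or barcode filter, is not given in the sources used here, so counts may not be independent molecules. Sample names are absent from the barcodes, none of which repeats, so the 4 samples were read as 1, with no replicates and no test. Filters of 500 counts, 200 genes and under 20% mt- counts kept 1050 of 1985 barcodes. Doublets were not removed. Scrublet (scanpy 1.11.5) called 9 cells (0.857%), left out as an alternative.

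Counts were summed over the positive and the negative cells of each gate, scaled to CPM and set against each other as a log2 ratio with an exact conditional interval (scipy 1.17.1). A side of 0 was set to 3 counts. Shares were also taken after thinning each cell to 500 counts once, with gates from the full counts. The ratio step was run on simulated Poisson counts, which checks the code. Those counts were not clumped as the real ones are, so the run does not show how well the intervals cover here. Of 25724 symbols, 25033 matched GENCODE vM21. Promoters are from RefSeq (GRCm38.p6). Named genes are the 6 receptors, the 3 most like each over the gate combinations, and up to 4 genes with at least 50 counts per pathway list. The receptors and lists were chosen with earlier results of these data known. Some genes of these lists are not reported here and were left out of the marker sums.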

Additional observations from a re-analysis of the deposited data

Results flagged for a closer look

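Counts of 5 receptors were also found in the 935 barcodes outside the cell filters, which enter no comparison above, at levels whose intervals lay above the limit that a count of 0 allows (21.2 CPM). These barcodes held 141827 counts in all, with a median of 88. Tnfrsf4 stood at 254 CPM in them and 516 CPM in the cells, from 36 counts. Tnfrsf18 stood at 233 CPM in them and 693 CPM in the cells, and Tnfrsf9 at 176 and 408 CPM. Cd27 stood at 233 CPM in them and 311 CPM in the cells, and Tnfrsf1b at 141 and 288 CPM. Whether these counts came from free RNA or from shallow cells was not tested.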

How the results depend on the processing

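Over 9 alternative settings, 491 of 540 log2 ratios of single receptors stayed within their first interval, 49 moved beyond it, and no ratio of at least 1.5-fold changed sign. The sign differed in 24 of the 540, each for a ratio whose first interval included 0, among them Tnfrsf4 by Il10 within Foxp3-positive cells (0.26, and -0.26 after thinning). Of the 49, 17 came with counts capped at 1 per cell and 14 with thinning. Counts of receptors at least 1.5-fold higher moved more. By Foxp3, 5 of 6 became 1 at a fold of 2 and 3 after thinning. By Gata3, 4 became 2 with capped counts, and within Foxp3-negative cells 4 became 1. By Gata3 within Foxp3-positive cells, 2 became 4 with the gate at 2 counts and 4 in cells of at least 1000 counts. By Ikzf2 within Foxp3-positive cells, 2 became 0 with capped counts, 1 with the mean of CPM over cells and 1 without barcodes with other-lineage counts. By Il10 within Foxp3-positive cells, 1 became 2 with the gate at 2 counts, after thinning or in cells of at least 1000 counts, and 0 with capped counts, the mean of CPM, cells of 800 to 2000 counts or without the other-lineage barcodes. Among pathway genes higher by Foxp3, the 4 other receptors became 1 with a minimum of 50 counts, the gate at 2 counts, thinning or cells of at least 1000 counts. The 0 ligands became 1 with the gate at 2 counts or the mean of CPM. The 2 adaptors became 1 with a minimum of 50 counts, thinning, the mean of CPM or cells of 800 to 2000 counts, and 0 with capped counts or without the other-lineage barcodes. The cause was not tested. No paired analysis was possible because there is 1 group and the barcodes carry no sample, and no sample could be left out for the same reason. Depth limits Tnfrsf25 most, with 82 counts.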
